A study of Mus musculus with 20 samples.

Results

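Dual-use TRAV/DV genes are V segments of the T cell receptor α locus that can also serve the δ chain, and their names carry both designations. They were taken as the genes whose name starts with TRAV and contains -DV, found as the first V gene of an in-frame TCRα clone. The rule found 9 such genes among 103 TRAV genes, and they made up 14274 of 197526 clonotypes in 17 mice. A clonotype here is a distinct combination of V gene, J gene and CDR3 amino acid sequence within a mouse, and the CDR3 is the junction of V and J that carries most receptor diversity. The clones come from TCRα libraries, so the tables cannot show use of these genes in the δ chain.

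In the mouse, the δ locus lies inside the α locus, between the V and the J segments of the α chain. A V segment joined to TRAJ removes the δ segments, so that a cell with a productive α rearrangement has lost δ on that allele. The α locus rearranges repeatedly, from V segments near the J cluster and J segments at its V-facing end towards the far ends of both arrays. TRAJ genes carry high numbers at the V-facing end and low numbers at the end next to TRAC. In the C57BL/6 strain a large part of the V array is duplicated, and the copies farther from the J cluster are named with D or N.

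The study asked whether CD8 T cell development depends on the change of proteasome between thymic cortex and other antigen-presenting cells, and receptor sequencing was one of its analyses. The thymoproteasome of cortical thymic epithelial cells contains the β5t subunit, encoded by Psmb11, and the immunoproteasome of medullary epithelial and hematopoietic cells contains β5i, encoded by Psmb8. CD8 T cells with high TCRβ and no CD4 were sorted from individual mice, 1000000 cells per sample according to the protocol. The sample labels name lymph nodes and the protocol names lymph nodes with spleens, and each library holds receptor transcripts alone.

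The groups were WT mice (n = 4), β5i-KO mice that lack Psmb8 (n = 5), β5t-KO mice that lack Psmb11 (n = 4), and BIT mice (n = 4), which are homozygous for a Psmb8 allele altered to express the Psmb11 sequence. BIT mice thus have β5t wherever the Psmb8 locus is active and lack β5i. All were males of 9 to 12 weeks on the C57BL/6 background. The study worked with 1 of several BIT lines unless it says otherwise, and its account of the receptor sequencing names no other line. The study speaks of 5 independent measurements for the sequencing and does not say which mice each held, so shared runs or litters cannot be told apart from the spread between mice that the p-values measure. The libraries BIT 3 and β5t-KO 5 were kept out of the comparisons.

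The 17 libraries held 1983032 to 8480570 reads, 14772 to 602397 tagged molecules and 622 to 26272 clonotypes. The libraries with under 2500 clonotypes were WT 1, β5t-KO 2 and β5t-KO 4. BIT libraries held 9362 to 26272 clonotypes and β5t-KO libraries 622 to 7656. The canonical invariant NKT join, TRAV11 with TRAJ18, was at 0 to 7 clonotypes per mouse and the MAIT join, TRAV1 with TRAJ33, at 0 to 8. Dedicated δ genes were seldom the V gene: TRDV2-2 was at 3 to 97 clonotypes per mouse, TRDV1 at 2 to 114, TRDV2-1 at 0 to 12, TRDV5 at 0 to 2 and TRDV4 at 0.

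The V segments contribute the first bases of the CDR3, starting from the codon of the conserved cysteine. These ends are shown because they are the part of each dual-use gene that reaches the CDR3. They are the ends of the annotated transcripts (GENCODE vM39), with the cysteine codon in lower case and the bases after it in capitals.
TRAV13-4-DV7: tgtGCTATGGAAC
TRAV14D-3-DV8: tgtGCAGCAAGTG
TRAV4-4-DV10: tgtGCTGCTGAGG
TRAV6-7-DV9: tgtGCTCTGAGTGA
TRAV16D-DV11: tgtGCTATGAGAGAGGG
TRAV15-1-DV6-1: tgtGCTCTCTGGGAGCTGG
TRAV15D-1-DV6D-1: tgtGCTCTCTGGGAGCTGG
TRAV15-2-DV6-2: tgcGCTCTCTCGGAACTGA
TRAV15D-2-DV6D-2: tgcGCTCTCTCGGAACTGA
The ends of the TRAV15 genes were 19 bases long, against 13 to 17 bases for the others. The central and the D copy of a TRAV15 gene had the same end. In the clones, the most common untrimmed end was this reference end for 7 of the 9 genes. The exceptions were TRAV15D-1-DV6D-1, where the most common assigned V part stopped after 16 bases, and TRAV6-7-DV9, which is described below.

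All 9 genes lie on chromosome 14 on the plus strand, with 2 exons each (GRCm39, GENCODE vM39). In order towards the J cluster they are TRAV15D-1-DV6D-1 (53100756 to 53101393), TRAV15D-2-DV6D-2 (53194239 to 53194857), TRAV16D-DV11 (53284744 to 53285278), TRAV14D-3-DV8 (53315909 to 53316502), TRAV15-1-DV6-1 (53797089 to 53797704), TRAV15-2-DV6-2 (53886861 to 53887451), TRAV4-4-DV10 (53921104 to 53921634), TRAV6-7-DV9 (53947359 to 53947876) and TRAV13-4-DV7 (53994813 to 53995378). Of these, 4 are D copies from the duplicated part. Another dual-use gene, TRAV21/DV12, is spelled with a slash in the clone tables, so the rule left it out, and its values are given beside the others where they bear on them.

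The recombination signal that RAG proteins cut follows directly after the V exon, as a heptamer, a spacer of 23 bases and a nonamer. It is shown for the genes whose signals differ most among the 9, read from GRCm39 on the plus strand, with heptamer and nonamer in capitals.
TRAV13-4-DV7, chr14:53995379-53995417: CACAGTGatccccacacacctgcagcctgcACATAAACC
TRAV16D-DV11, chr14:53285279-53285317: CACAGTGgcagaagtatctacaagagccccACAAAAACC
TRAV4-4-DV10, chr14:53921635-53921673: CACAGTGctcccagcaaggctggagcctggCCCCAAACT
TRAV6-7-DV9, chr14:53947877-53947915: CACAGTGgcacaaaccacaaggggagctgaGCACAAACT
TRAV15-2-DV6-2, chr14:53887452-53887490: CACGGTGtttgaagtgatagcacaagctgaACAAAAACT
The 39 bases after the exon were compared with the heptamer CACAGTG and the nonamer ACAAAAACC at these fixed positions and on the coding strand only. The heptamer was exact in 7 of the 9 dual-use genes (77.8%) and in 80 of 92 other TRAV genes whose next 3 bases were CAC (87.0%). The consensus nonamer was exact in TRAV16D-DV11 alone among the 9. The number of nonamer bases that matched was 5 to 9 with a median of 8 of 9, against 2 to 9 with a median of 7 in the other genes. Both TRAV15-2 copies carried the same altered heptamer.

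The 9 genes differed in how much they were used. TRAV6-7-DV9 held 3354 clonotypes (1.70% of all), TRAV4-4-DV10 3297 (1.67%), TRAV16D-DV11 3108 (1.57%) and TRAV14D-3-DV8 2001 (1.01%). The others held 227 to 839 clonotypes, with TRAV13-4-DV7 at 839, TRAV15D-2-DV6D-2 at 741, TRAV15-2-DV6-2 at 362, TRAV15-1-DV6-1 at 345 and TRAV15D-1-DV6D-1 at 227. TRAV21/DV12 held 820. Together the 9 genes accounted for 5.38 to 7.21% of clonotypes in WT mice, 5.45 to 7.50% in β5i-KO mice, 6.44 to 7.88% in β5t-KO mice and 7.31 to 7.51% in BIT mice. The means were 6.37 ± 0.895, 6.83 ± 0.822, 7.34 ± 0.634 and 7.40 ± 0.0911% (SD). The range of WT mice overlapped those of β5i-KO and β5t-KO mice, while the lowest BIT mouse was above the highest WT mouse. That separation was lost in molecules, at 6.56 to 7.60% in BIT and 5.61 to 6.91% in WT mice, and in reads, at 6.65 to 7.31% and 5.84 to 6.98%. The library BIT 3, kept out for its 455 clonotypes, was at 4.62%. BIT libraries held 9362 to 26272 clonotypes and WT libraries 2454 to 16876, and the part of clonotype number in the combined share was not tested.

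**Figure D1:**
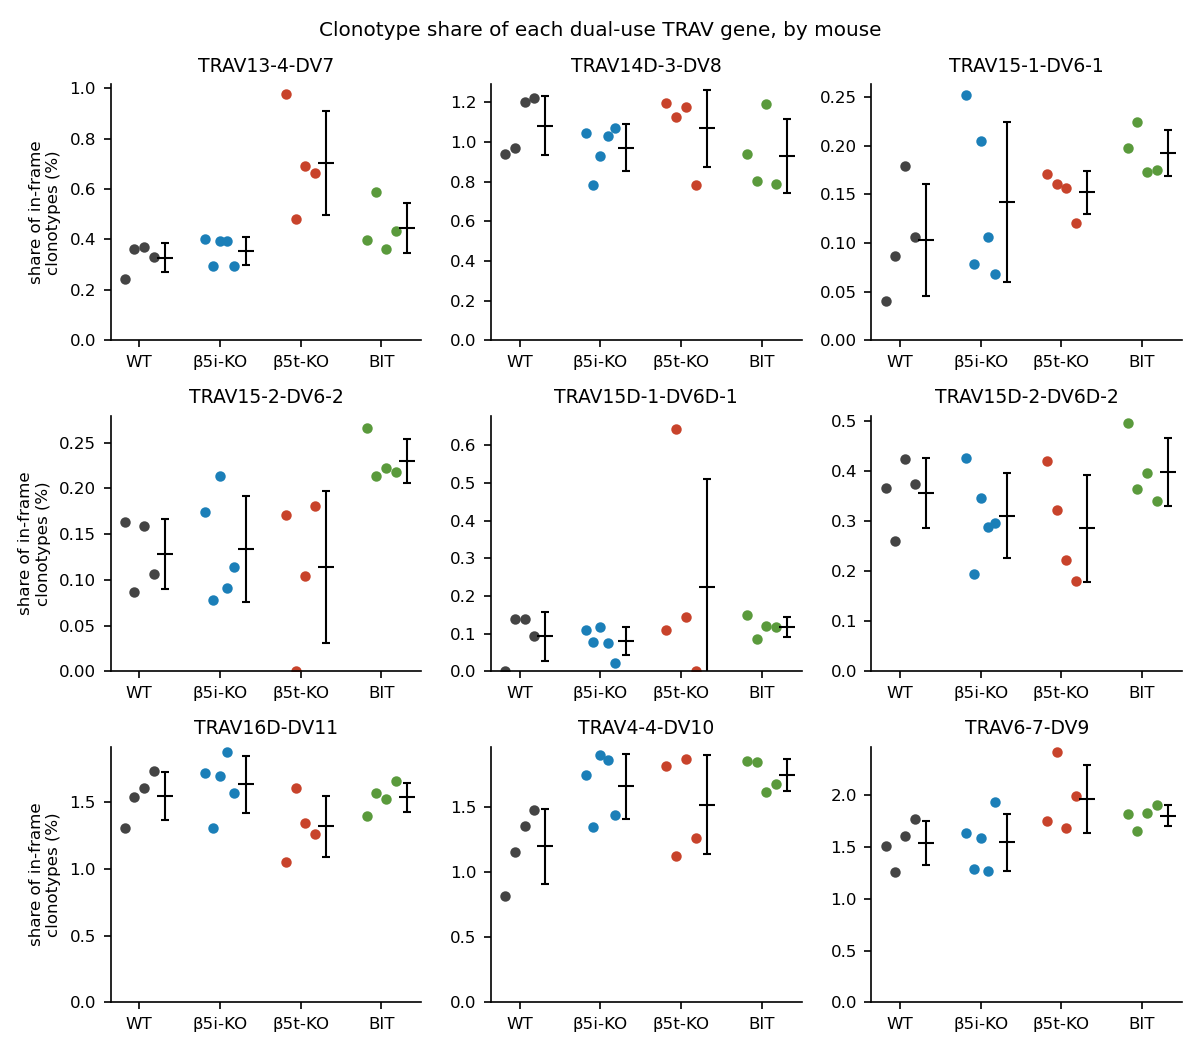
Share of in-frame clonotypes (percent, linear axis from 0) that used each of the 9 dual-use genes, with 1 point per mouse and, beside the points, the mean and SD of the group (bars are cut at 0). TRAV13-4-DV7 was at 0.482 to 0.978% in β5t-KO mice and at 0.244 to 0.371% in WT mice, and TRAV15-2-DV6-2 was highest in BIT mice.

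Counted in clonotypes, TRAV13-4-DV7 was the one dual-use gene whose usage was called different between genotypes, and it was higher in β5t-KO mice. Other genes were called under some alternatives, of which some are given with those genes. It is the nearest of the 9 to the J cluster. Its share of clonotypes was 0.244, 0.363, 0.371 and 0.332% in the 4 WT mice. It was 0.400, 0.293, 0.394, 0.393 and 0.296% in the 5 β5i-KO mice. It was 0.978, 0.482, 0.692 and 0.662% in the 4 β5t-KO mice. All β5t-KO mice were above all WT and β5i-KO mice, as held for 5.56 and 3.33% of all genes. BIT mice had 0.400, 0.587, 0.363 and 0.432%, so that the highest BIT mouse lay above the lowest β5t-KO mouse. That β5t-KO mouse rested on 3 of 622 clonotypes, and its 95% Wilson interval, which covers counting error only, ran from 0.164 to 1.41%.

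The usage test was edgeR's quasi-likelihood test across 90 TRAV genes with Benjamini-Hochberg adjustment over all 90, and a gene was called at an adjusted p under 0.05. Between β5t-KO and WT mice TRAV13-4-DV7 had a log2 fold change of 1.19 ± 0.23 (SE, adjusted p = 0.000343), a 2.28-fold higher usage. It was the 1 of 9 dual-use genes called, beside 6.67% of all genes tested and 5.56% called higher. Between β5t-KO and β5i-KO mice the log2 fold change was 1.07 ± 0.21 (edgeR, adjusted p = 0.000531), again 1 of 9 called beside 6.67% of all genes, with 3.33% called higher and 3.33% lower. Between BIT and β5t-KO mice it fell by 0.86 on the log2 scale (SE 0.20, edgeR, adjusted p = 0.00418), 1 of 9 called beside 7.78% of all genes, with 4.44% called higher and 3.33% lower. These 3 comparisons share the β5t-KO mice. Without β5t-KO 1, the mouse with the highest share, the BIT comparison gave -0.62 and missed the threshold (edgeR, adjusted p = 0.153), while the other 2 gave 0.95 (adjusted p = 0.0497) and 0.83 (adjusted p = 0.0407).

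**Figure D2:**
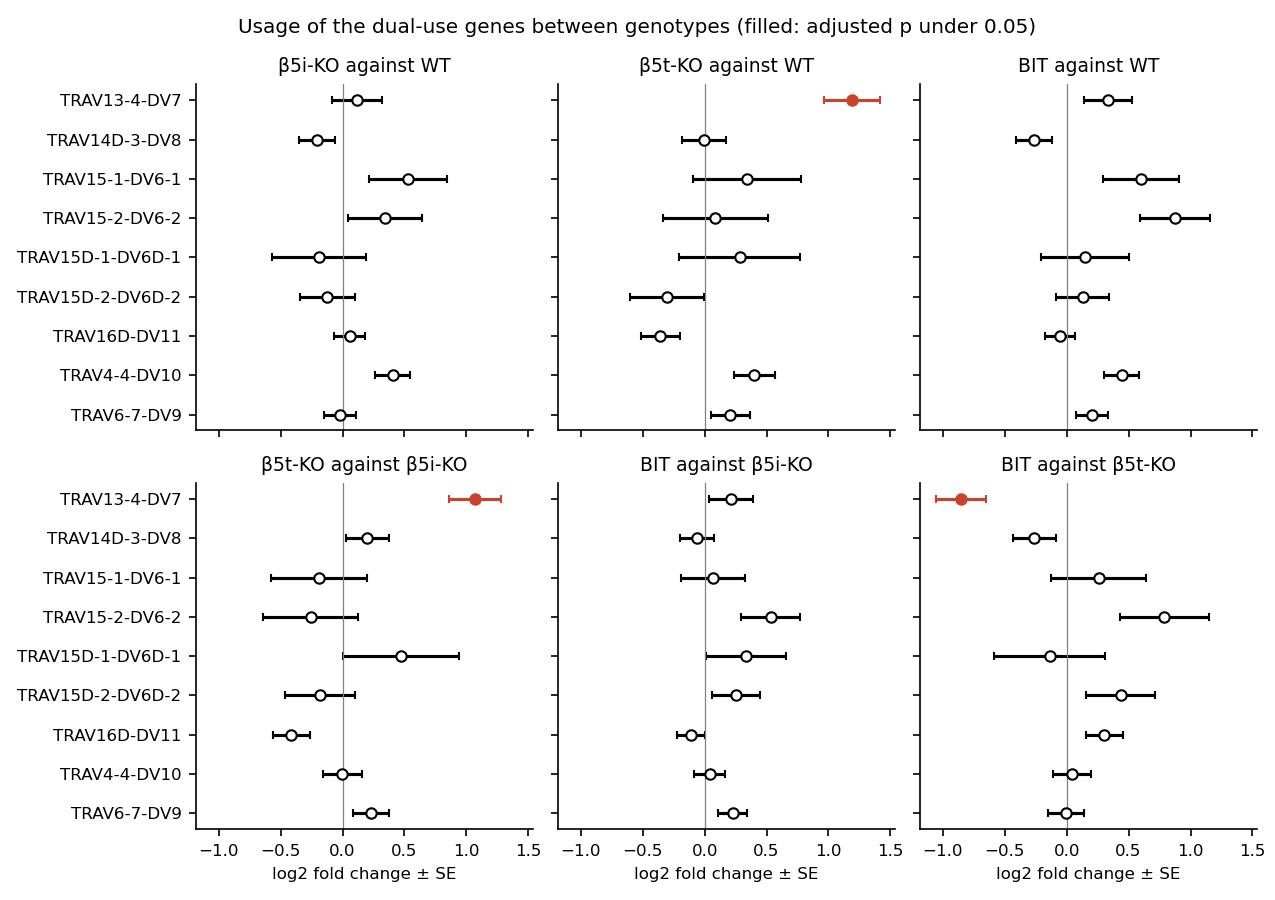
Log2 fold change with its standard error for each dual-use gene in the 6 comparisons of genotypes, with filled red points for adjusted p under 0.05. TRAV13-4-DV7 alone is filled, at 1.19 for β5t-KO against WT, 1.07 for β5t-KO against β5i-KO and -0.86 for BIT against β5t-KO.

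In the comparisons that did not involve β5t-KO mice, edgeR called no dual-use gene. For β5i-KO against WT it called 0 of 9, beside 1.11% of all genes. An unadjusted p under 0.05 was found for 1 of 9 and for 12 of all 90 genes. For BIT against WT it called 0 of 9, beside 2.22% of all genes, and the unadjusted counts were 2 of 9 and 17 of 90. For BIT against β5i-KO it called 0 of 9, beside 0.0% of all genes, and the unadjusted counts were 1 of 9 and 3 of 90. DESeq2 also called 0 of 9 in each of the 3, and 0 of all genes tested. TRAV13-4-DV7 had log2 fold changes of 0.12 ± 0.20, 0.33 ± 0.20 and 0.21 ± 0.18 there (SE, edgeR, adjusted p = 0.900, 0.360 and 0.998).

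Counted in molecules in place of clonotypes, TRAV13-4-DV7 separated β5t-KO mice from all others, while the other 3 groups overlapped. Its share of in-frame molecules was 1.02, 0.863, 0.904 and 0.680% in β5t-KO mice. It was 0.238 to 0.345% in WT, 0.315 to 0.481% in β5i-KO and 0.303 to 0.436% in BIT mice. The lowest β5t-KO mouse was above the highest of the 13 other mice, as held for 2.22% of all genes. The log2 fold change against WT was then 1.47 (edgeR, adjusted p = 0.000398).

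The most widely found CDR3 of TRAV13-4-DV7 joined TRAJ52, had 14 residues, and was present in 14 of 17 mice. Its most widely found nucleotide form, in 13 mice, is shown with the V part in capitals, and the TRAJ52 part follows with no inserted base.
TRAV13-4-DV7 with TRAJ52: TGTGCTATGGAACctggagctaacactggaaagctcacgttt
Counted over all nucleotide forms, this CDR3 was at 1167, 2779, 1338 and 1844 molecules per 1000000 in-frame molecules in the 4 β5t-KO mice. WT mice had 561, 131, 80.3 and 30.6, BIT mice 50.9 to 228, and β5i-KO mice 0 to 37.1, with molecules in 2 of the 5. Every β5t-KO mouse was above every other mouse. Of 491 sequences of V gene and CDR3 found in at least 10 mice, 8 (1.63%) separated the β5t-KO mice from the other 13 in this way, and no test was run on single sequences. The CDR3 held 11.5 to 32.2% of the gene's molecules in β5t-KO mice, 0.907 to 23.5% in WT mice and at most 5.45% elsewhere. Without it, TRAV13-4-DV7 still held 0.496 to 0.900% of molecules in β5t-KO mice, against 0.182 to 0.334% in WT mice, 0.315 to 0.481% in β5i-KO mice and 0.298 to 0.428% in BIT mice.

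**Figure D3:**
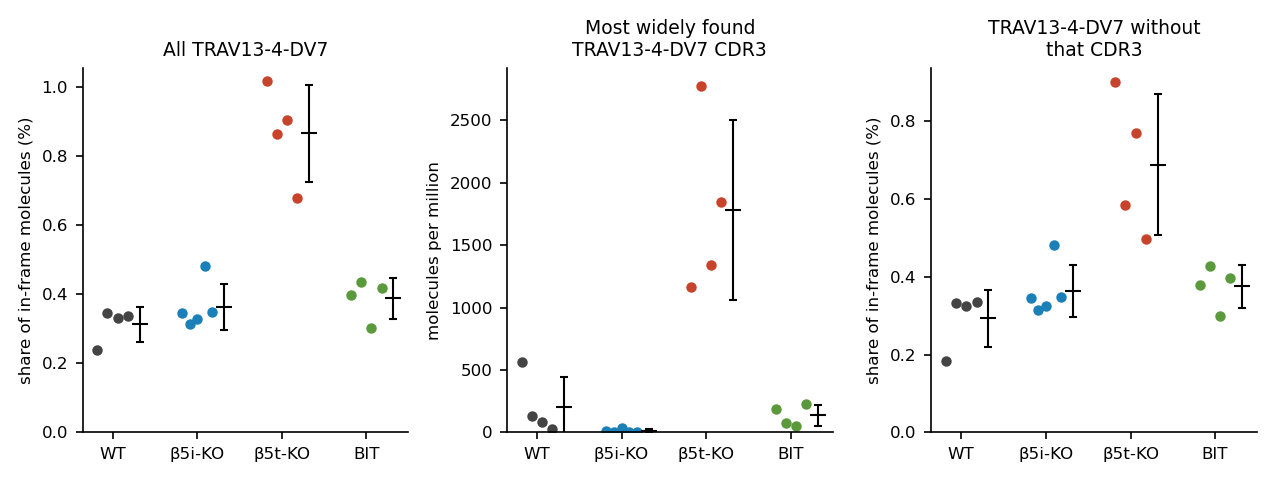
TRAV13-4-DV7 counted in molecules, with 1 point per mouse and the mean and SD beside each group (linear axes from 0, bars cut at 0). Left, share of in-frame molecules for the whole gene. Middle, molecules per 1000000 for its most widely found CDR3, at 1167 to 2779 in β5t-KO mice and at most 561 elsewhere. Right, the share of the gene without that CDR3, at 0.496 to 0.900% in β5t-KO mice and at most 0.481% elsewhere.

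The J genes that TRAV13-4-DV7 used most were TRAJ49 (14.8% of its clonotypes), TRAJ52 (9.77%) and TRAJ57 (8.94%), all near the V-facing end of the J cluster. Other TRAV genes used these J genes in 3.14, 1.28 and 1.22% of clonotypes. Joins to TRAJ49 made up 118 to 322 per 100000 clonotypes in β5t-KO mice, 40.7 to 69.2 in WT, 36.2 to 91.1 in β5i-KO and 27.1 to 128 in BIT mice. Joins to TRAJ52 were at 109 to 170 per 100000 in β5t-KO mice, 29.6 to 69.2 in WT, 0 to 45.4 in β5i-KO and 26.2 to 53.4 in BIT mice. Joins to TRAJ57 were at 0 to 62.1 per 100000 in β5t-KO mice and 0 to 53.3 in WT mice, so that the ranges overlapped. Of the 17 J genes with at least 5 TRAV13-4-DV7 clonotypes in β5t-KO and WT mice together, 12 had the higher mean per 100000 in β5t-KO mice. These are counts within 1 gene and were not tested. The TRAJ49 joins were 22 clonotypes in β5t-KO, 23 in WT, 34 in β5i-KO and 45 in BIT mice. The TRAJ52 joins were 23, 17, 18 and 24 clonotypes in the same order. β5t-KO 2 held 3 clonotypes of the gene among 622, so 1 clonotype weighs heavily in its rates.

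The TRAV genes whose clonotype share was most like that of TRAV13-4-DV7 over the 17 libraries were TRAV14-1 (Pearson r = 0.79 of log2 shares, with 0.5 added to each count), TRAV6-6 (r = 0.68) and TRAV9D-3 (r = 0.65), out of 81 genes compared. The libraries enter with their genotypes, so the correlation includes the difference between groups. TRAV14-1 and TRAV6-6 also belong to V subgroups of dual-use genes. Among 33 tested genes of those subgroups that have no DV name, edgeR called 3 higher and 0 lower in β5t-KO against WT mice: TRAV14-1 (log2 fold change 0.89 ± 0.15, adjusted p = 6.61e-05), TRAV13D-2 (0.67 ± 0.20, adjusted p = 0.0343) and TRAV6-6 (0.65 ± 0.20, adjusted p = 0.0484). In that comparison 5.56% of all 90 genes were called higher and 1.11% lower. The median log2 fold change of the 33 was 0.22 and that of all 90 genes 0.09. Between β5t-KO and β5i-KO mice 1 of the 33, TRAV14-1, was called higher (0.77 ± 0.14, edgeR, adjusted p = 0.000245), beside 3.33% of all genes. Between BIT and β5t-KO mice TRAV14-1 was called lower (-0.76 ± 0.14, edgeR, adjusted p = 0.000354), beside 3.33% of all genes. None of the 33 was called in the other 3 comparisons, where edgeR called 0 to 2 of 90 genes.

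The other 8 dual-use genes had log2 fold changes of -0.36 to 0.40 between β5t-KO and WT mice, with edgeR's adjusted p between 0.153 and 0.978. Over all 9 the median was 0.21, while 5 to 95% of all 90 genes ranged from -0.51 to 0.76. TRAV4-4-DV10, one of the most used, had its lowest mean share in WT mice, and no comparison with WT mice was called. Its share was 0.815, 1.16, 1.35 and 1.48% in WT mice and 1.85, 1.85, 1.61 and 1.68% in BIT mice. All BIT mice were above all WT mice, as held for 12.2% of all genes. The log2 fold change was 0.44 ± 0.14 (SE, edgeR, adjusted p = 0.0643). β5i-KO mice had 1.35 to 1.90%, which overlapped both. TRAV4-4-DV10 was called for BIT against WT in 4 of 21 alternatives, among them without WT 4 at 0.55 (edgeR, adjusted p = 0.0389). It was called for β5i-KO against WT in 1 of 22, without β5i-KO 2, at 0.45 (edgeR, adjusted p = 0.0399).

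TRAV15-2-DV6-2 also stood highest in BIT mice, but 95.9% of its clones listed several V genes. The gene listed most often beside it was TRAV15D-2-DV6D-2, which has the same annotated end. Too few clones of TRAV15-2-DV6-2 listed 1 V gene for a test on those alone. Its share was 0.266, 0.214, 0.222 and 0.218% in BIT mice. It was 0.0864 to 0.163% in WT mice, 0.0781 to 0.213% in β5i-KO mice and 0 to 0.181% in β5t-KO mice. The BIT mice were above all other mice, the lowest of them at 0.214% just above the highest β5i-KO mouse at 0.213%. Such a separation of BIT mice held for 12.2% of all genes against WT, 2.22% against β5i-KO and 12.2% against β5t-KO. The β5t-KO mouse at 0 had 622 clonotypes, which allows a share of up to 0.482%. The log2 fold change for BIT against WT was 0.87 ± 0.28 (SE, edgeR, adjusted p = 0.0643). In fits of WT and BIT mice alone both genes passed the threshold (TRAV15-2-DV6-2 at 0.88 with adjusted p = 0.0212, TRAV4-4-DV10 at 0.43 with adjusted p = 0.0269, edgeR). BIT libraries also held more clonotypes than most WT libraries, but on average fewer reads and fewer molecules (mean 227804 against 300470). With only libraries of at least 2500 clonotypes, chosen after seeing the data, neither gene was called for BIT against WT. The part of clonotype number in these values was not tested. TRAV21/DV12, outside the rule, likewise had all BIT mice (0.352 to 0.525%) above all WT mice (0.273 to 0.338%) without being called (0.60 ± 0.23, edgeR, adjusted p = 0.125).

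Counted in molecules, TRAV16D-DV11 was called lower in β5t-KO mice than in WT, β5i-KO and BIT mice. Counted in clonotypes, it missed the threshold in these comparisons. Its share of molecules was 0.798, 0.976, 0.914 and 1.03% in β5t-KO mice and 1.21 to 1.51% in WT mice. β5i-KO mice had 1.16 to 1.74% and BIT mice 1.18 to 1.49%, so that all β5t-KO mice lay below all others, as held for 2.22% of all genes. Its share of clonotypes was 1.06 to 1.61% in β5t-KO mice and 1.30 to 1.73% in WT mice, which overlapped. In molecules the log2 fold change against WT fell by 0.56 (edgeR, adjusted p = 0.0369), and in clonotypes it fell by 0.36 ± 0.16 (SE, edgeR, adjusted p = 0.163). Against β5i-KO mice it was -0.65 in molecules (edgeR, adjusted p = 0.00413) and -0.41 ± 0.15 in clonotypes (SE, edgeR, adjusted p = 0.0934). For BIT against β5t-KO it was 0.50 in molecules (edgeR, adjusted p = 0.0342) and 0.30 ± 0.15 in clonotypes (SE, edgeR, adjusted p = 0.212). Without β5i-KO 2 the clonotype comparison of β5t-KO with β5i-KO mice was called at -0.47 (edgeR, adjusted p = 0.0222). The most widely found TRAV16D-DV11 CDR3, joined to TRAJ22, was in 10 mice, of which 1 was a β5t-KO mouse, at 4081 molecules per 1000000.

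TRAV14D-3-DV8 had overlapping ranges in all genotypes, at 0.937 to 1.22% of clonotypes in WT, 0.781 to 1.07% in β5i-KO, 0.783 to 1.19% in β5t-KO and 0.786 to 1.19% in BIT mice. TRAV6-7-DV9 was at 1.26 to 1.77% in WT, 1.27 to 1.94% in β5i-KO, 1.68 to 2.41% in β5t-KO and 1.66 to 1.90% in BIT mice. The shares of TRAV6-7-DV9 include the clonotypes with the TRAV6D-7 end, described below. The 3 remaining TRAV15 genes were rare. TRAV15D-2-DV6D-2 was at 0.181 to 0.495% over the 17 mice and TRAV15-1-DV6-1 at 0.0407 to 0.252%. TRAV15D-1-DV6D-1 was at 0 to 0.643%, and its highest value came from 4 clonotypes of the 622 in β5t-KO 2. It was absent from WT 1 and β5t-KO 4, where a count of 0 allows up to 0.122 and 0.181%. For TRAV15-1-DV6-1 all BIT mice were above all β5t-KO mice, as held for 12.2% of all genes, without a call (0.26 ± 0.38, edgeR, adjusted p = 0.763).

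The J genes joined to a dual-use gene varied with the place of the V gene in the locus. The mean TRAJ number over clonotypes was 45.0 for TRAV13-4-DV7, 37.9 for TRAV4-4-DV10, 33.8 for TRAV15-2-DV6-2, 33.5 for TRAV15-1-DV6-1 and 33.4 for TRAV6-7-DV9. It was 26.4 for TRAV15D-1-DV6D-1, 24.6 for TRAV16D-DV11, 21.5 for TRAV14D-3-DV8 and 19.8 for TRAV15D-2-DV6D-2. TRAV13-4-DV7 lies 397.6 kb before the first TRAJ gene and TRAV15D-1-DV6D-1 1292 kb before it. Across the 9 genes distance and mean TRAJ number had a Pearson r of -0.88, and across 78 other TRAV genes with at least 100 clonotypes -0.72. Genes are not independent replicates, and all values come from the same libraries. TRAV21/DV12, at 279.0 kb, had a mean of 48.3.

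**Figure D4:**
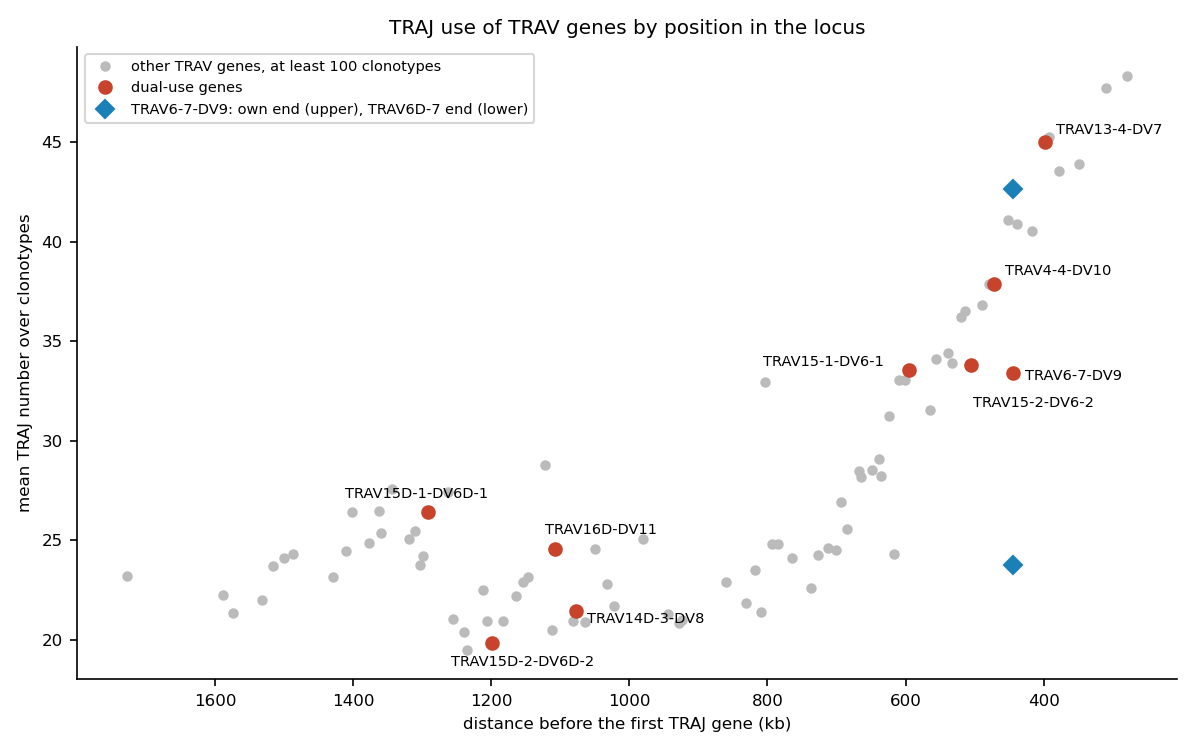
Mean TRAJ number over clonotypes against distance before the first TRAJ gene (kb, decreasing to the right) for TRAV genes. Red points are the 9 dual-use genes, grey points other genes with at least 100 clonotypes, and blue diamonds the 2 kinds of TRAV6-7-DV9 clonotype, at 42.7 and 23.7. TRAV6-7-DV9 as a whole, at 33.4, lies below its neighbours at 41.1 and 40.9.

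In pairs of copies, the central gene had the higher mean TRAJ number. TRAV13-4-DV7 had a mean TRAJ number of 45.3 ± 1.70 over mice (SD) and its copy TRAV13D-4 20.1 ± 2.42, higher for the central gene in 11 of 11 mice with at least 5 clonotypes of both. TRAV4-4-DV10 was at 37.9 ± 1.14 and TRAV4D-4 at 22.8 ± 2.12, in 16 of 16 mice. TRAV14D-3-DV8, which is itself the D copy, was at 21.6 ± 1.28 and TRAV14-3 at 45.5 ± 1.28, in 17 of 17 mice. Both pairs in which each copy is dual-use showed it too, TRAV15-2-DV6-2 above TRAV15D-2-DV6D-2 in 13 of 13 mice (33.8 ± 3.68 against 19.5 ± 2.72) and TRAV15-1-DV6-1 above TRAV15D-1-DV6D-1 in 11 of 12 (33.3 ± 3.61 against 26.1 ± 4.14). The assignment of the TRAV15 genes is uncertain, since 95.9% of TRAV15-2-DV6-2 clones, 89.4% of TRAV15D-2-DV6D-2 clones and 64.5% of TRAV15D-1-DV6D-1 clones listed several V genes.

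TRAV6-7-DV9 departed from its neighbours. Its mean TRAJ number of 33.4 lay below those of TRAV5-4 (41.1) and TRAV7-6 (40.9), the genes on either side with at least 100 clonotypes. Its clones carried 2 kinds of V end. The first is the annotated end of TRAV6-7-DV9, and the second is the annotated end of TRAV6D-7 and TRAV6N-7 in the duplicated part, printed with the base that differs in capitals (A10G, counted from 1 at the first base of the cysteine codon).
TRAV6-7-DV9 end: tgtgctctgAgtga
TRAV6D-7 and TRAV6N-7 end: tgtgctctgGgtga
Among untrimmed clones assigned to TRAV6-7-DV9, 252 of 595 had the first end and 286 had the second. By the first 11 bases of the CDR3, 1501 clonotypes (44.8%) were of the first kind, 1343 (40.0%) of the second and 510 (15.2%) neither.

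The kinds used different J genes in every mouse. The mean TRAJ number was 42.7 for the first kind and 23.7 for the second. By mouse the first kind ran from 38.9 to 45.6 with a median of 42.6, and the second from 19.3 to 28.2 with a median of 24.4, with no overlap. The first kind was higher in 17 of 17 mice. The first kind lay near the genes that flank TRAV6-7-DV9, and the second near TRAV6D-7 itself, at 23.2. Of the clones of the first kind 0.194% listed several V genes, against 61.8% of the second, and the other gene listed most often beside TRAV6-7-DV9 was TRAV6D-7.

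**Figure D5:**
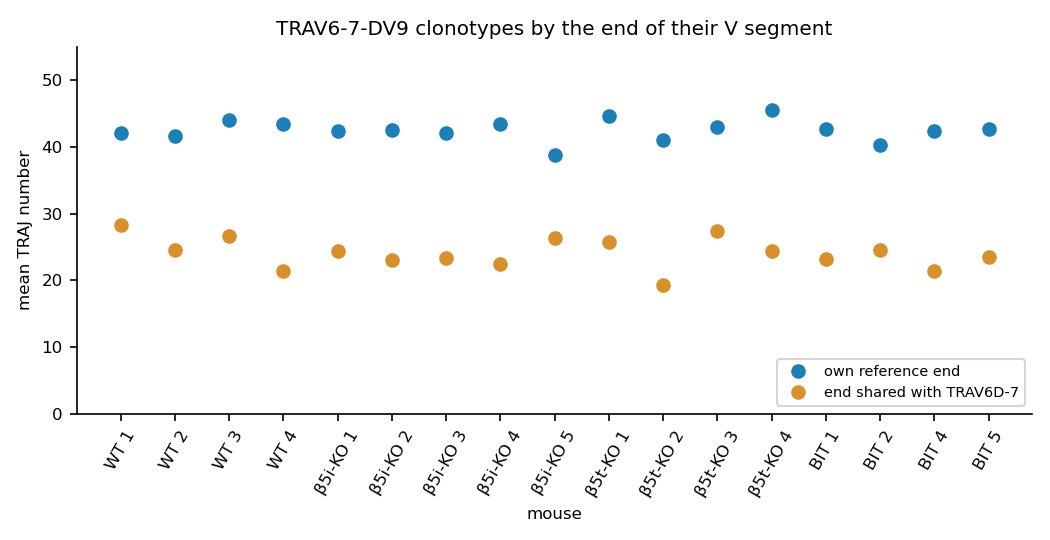
Mean TRAJ number of TRAV6-7-DV9 clonotypes in each of the 17 mice, split by the end of the V segment (blue, its own reference end; orange, the end of TRAV6D-7). The blue points lie between 38.9 and 45.6 and the orange points between 19.3 and 28.2.

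The kinds were about equally frequent in WT mice, at 0.519 to 0.806% of clonotypes for the first and 0.536 to 0.733% for the second. The first kind was at 0.804 to 0.962% in β5t-KO mice, 0.527 to 0.797% in β5i-KO mice and 0.705 to 0.895% in BIT mice. The second was at 0.574 to 0.965% in β5t-KO mice, 0.515 to 0.888% in β5i-KO mice and 0.630 to 0.823% in BIT mice. The β5t-KO and WT ranges overlapped for both kinds. The most widely found CDR3 of TRAV6-7-DV9, in 11 mice, is shown in its most widely found nucleotide form, which was in 6 mice and had the second end.
TRAV6-7-DV9 with TRAJ30: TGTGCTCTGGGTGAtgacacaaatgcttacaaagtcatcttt
Its capitals mark the V part. It was found in 3 of 4 WT, 5 of 5 β5i-KO and 3 of 4 BIT mice, and in 0 of 4 β5t-KO mice, at up to 387, 890 and 80.9 molecules per 1000000 in the first 3 groups. Of the 491 sequences found in at least 10 mice, 24.0% were found in no β5t-KO mouse. The β5t-KO libraries held the fewest clonotypes of the groups on average, at 622 to 7656.

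Between genotypes, neither the mean TRAJ number nor the mean CDR3 length of a dual-use gene was called. The limma test, weighted by clonotypes, covered 62 TRAV genes, among them TRAV13-4-DV7, TRAV14D-3-DV8, TRAV16D-DV11, TRAV4-4-DV10 and TRAV6-7-DV9. For the TRAJ number the differences of these 5 over the 6 comparisons ran from -2.99 to 2.96, with no adjusted p under 0.217, and 4 of 30 tests had an unadjusted p under 0.05. Both ends of that range were TRAV6-7-DV9, whose mean covers the 2 kinds of clonotype at 42.7 and 23.7. The part of their proportions was not tested. In the same fits limma called 1.61% of the 62 genes for β5t-KO against WT and 0.0% in each other comparison. Per comparison, 1 to 10 of the 62 genes had an unadjusted p under 0.05. For CDR3 length the differences ran from -0.26 to 0.13 residues, with no adjusted p under 0.284 and 1 of 30 tests at an unadjusted p under 0.05. There limma called 3.23% of genes in each of the 3 comparisons with β5t-KO mice and 0.0% in the other 3. Per comparison, 2 to 10 of the 62 genes had an unadjusted p under 0.05 for length.

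Within a mouse, dual-use clonotypes differed from those of other TRAV genes in several ways. Their mean CDR3 length was 14.2 ± 0.0826 residues over mice (SD) against 13.6 ± 0.0995, longer in 17 of 17 mice. By gene the mean ran from 13.5 residues for TRAV13-4-DV7 to 15.6 for TRAV15-1-DV6-1, so single genes lay on both sides of 13.6. TRAV4-4-DV10 was at 13.56, TRAV14D-3-DV8 at 13.60, TRAV6-7-DV9 at 14.25 and TRAV16D-DV11 at 14.69. The 4 TRAV15 genes, with the longest V ends, were all above 15 residues. Inserted bases were 2.30 per clone for dual-use genes and 2.30 for the others, higher in 7 of 17 mice. The mean TRAJ number was higher in 16 of 17 mice, at 30.7 ± 1.33 against 28.4 ± 0.94. By gene it ran from 19.8 for TRAV15D-2-DV6D-2 to 45.0 for TRAV13-4-DV7, so single genes lay on both sides of 28.4. It varied with place in the locus, as given above. Clones with several listed V genes were fewer in 17 of 17 mice, at 14.98 ± 3.83% against 35.0 ± 4.31%.

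The in-frame share of distinct rearrangements was 88.4 ± 2.74% for dual-use genes and 90.7 ± 0.93% for the others (SD over mice), lower in 16 of 17 mice. A rearrangement with a stop codon counted as not in frame in this share. The TRAV15 genes stood lowest, with 69.8% for TRAV15-1-DV6-1, 71.8% for TRAV15-2-DV6-2, 75.2% for TRAV15D-1-DV6D-1 and 86.3% for TRAV15D-2-DV6D-2. TRAV16D-DV11 stood highest at 95.5%. TRAV16D-DV11 also had the largest share of CDR3 sequences found in at least 3 mice, 11.6%, against 8.51% for TRAV4-4-DV10 and 0.635 to 4.82% for the other 7. It had the fewest inserted bases of the 9 genes, 1.75 per clone.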

How the data were processed

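The authors assembled TCRα reads into clones with MiXCR and deposited, for each clone, its V and J genes, CDR3 sequence, read count and count of unique molecular identifiers, with no normalization. The submitters' processing notes list mm10 with no role, and the MiXCR version and settings are not given in the sources used here. The tables hold no coordinates, so positions come from GENCODE vM39 on GRCm39. TCRβ tables were not used, and WT 5 was not analysed here. BIT 3 (455 clonotypes) and β5t-KO 5 (24 clonotypes) were kept out of the comparisons.

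The first V gene listed for a clone was taken. Out-of-frame clones and clones with a stop codon were left out except for the in-frame share, where both counted as not in frame. Usage was tested with edgeR 4.0.16 in R 4.3.3 on counts of clonotypes, with the library total as offset and all 17 libraries in 1 fit, over TRAV genes with at least 5 clonotypes in at least 4 libraries. Mean TRAJ number and CDR3 length were tested with limma 3.58.1, with values from under 5 clonotypes set to missing and genes with values in at least 3 libraries of every group. The alternatives included DESeq2 1.42.0. Summaries used Python 3.11.15 with pandas 2.3.3. Scripts were tested on simulated data. All 9 genes were named, with full statistics for those called, the 3 genes most alike to a called gene, and for each gene the CDR3 found in the most mice, of which 3 are described. The members and lists were chosen with earlier results of these data known. Clonotype numbers limit precision in shallow libraries, and intervals cover counting error only.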

Additional observations from a re-analysis of the deposited data

Results flagged for a closer look

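In 5 of 59 groups of 4 or 5 mice, 1 mouse lay far from the others of its group relative to the group's range (Dixon's criterion). Chance flags about 1 group in 20. The clonotype share of TRAV14D-3-DV8 was 0.783% in β5t-KO 4, against 1.13 to 1.19% in the other β5t-KO mice. The share of TRAV15-2-DV6-2 was 0.266% in BIT 1, against 0.214 to 0.222% in the other BIT mice. The mean TRAJ number of TRAV13-4-DV7 was 39.9 in 1 β5i-KO mouse, against 45.4 to 46.3 in the others. The β5i-KO mice held 13 to 98 clonotypes of this gene. The mean TRAJ number of TRAV16D-DV11 was 21.7 in WT 1, from 32 clonotypes, against 23.9 to 24.3 in the other WT mice. The mean TRAJ number of TRAV6-7-DV9 was 29.1 in β5t-KO 2, from 15 clonotypes, against 35.8 to 37.0 in the other β5t-KO mice. Small counts limit the precision of these means.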

How the results depend on the processing

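TRAV13-4-DV7 was called in 21 of 21 alternatives for β5t-KO against WT, in 22 of 22 against β5i-KO, and in 20 of 21 for BIT against β5t-KO, where it was lost without β5t-KO 1. Over all dual-use genes and measures, 1953 of 2103 values kept their sign and side of the threshold, 133 took the other sign without being called before or after, 16 gained a call and 1 lost it. The sign changes fell in 50 of 114 results, so the direction of uncalled differences is not settled.

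The number of TRAV genes called for usage was 1 for β5i-KO against WT and 0 under TMM, DESeq2, reads, molecules, clones that list 1 V gene, only the groups compared, and only libraries with at least 2500 clonotypes, the last chosen after seeing the data. Leaving out 1 mouse gave 0 to 5. For β5t-KO against WT it was 6, with 3 for clones that list 1 V gene, 3 for clones with at least 2 molecules, 2 under the replicate block, and 2 to 5 with 1 mouse left out. For BIT against WT it was 2, with 1 under TMM, 0 under DESeq2, 0 in reads, 1 in molecules, 0 for clones that list 1 V gene, 4 for clones with at least 2 molecules, 8 with only the groups compared, 5 under the replicate block, 0 in deeper libraries, and 0 to 3 with 1 mouse left out. For BIT against β5t-KO it was 7, with 4 under TMM, 11 in molecules, 13 for nucleotide clonotypes, 4 with no filter, 12 with only the groups compared, and 2 to 6 with 1 mouse left out. For β5t-KO against β5i-KO it was 6, and 5 to 10 with 1 mouse left out.

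Of the dual-use genes, β5i-KO against WT called 0 to 1 with 1 mouse left out. For β5t-KO against WT 2 were called in reads and 2 in molecules, in place of 1. BIT against WT called 2 for clones with at least 2 molecules, 2 with only the groups compared and 2 under the replicate block, in place of 0, and 0 to 1 with 1 mouse left out. BIT against β5t-KO called 2 in reads and 2 in molecules, and 0 to 1 with 1 mouse left out. β5t-KO against β5i-KO called 2 in reads and 2 in molecules, and 1 to 2 with 1 mouse left out.

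For mean TRAJ number, β5t-KO against WT called 1 gene, with 2 without weights, 0 over molecules, 2 for clones that list 1 V gene, 2 with only the groups compared, 2 under the replicate block, and 0 to 2 with 1 mouse left out. In place of 0, molecules gave 1 for BIT against β5i-KO, 1 for BIT against β5t-KO and 1 for β5t-KO against β5i-KO. The last also gave 1 for clones that list 1 V gene and 2 under the replicate block, of which 1 was dual-use, TRAV6-7-DV9 (2.98, limma, adjusted p = 0.0294). The part of its 2 kinds of clonotype in that value was not tested. For CDR3 length, β5i-KO against WT called 1 over molecules and 1 with only the groups compared, in place of 0. β5t-KO against WT called 2, with 1 for clones that list 1 V gene, 1 with only the groups compared, 6 under the replicate block, and 1 to 3 with 1 mouse left out. BIT against β5t-KO called 2, with 1 without weights, 7 under the block, and 1 to 3 with 1 mouse left out. β5t-KO against β5i-KO called 2, with 5 for clones that list 1 V gene, 4 under the block, and 2 to 3 with 1 mouse left out.

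The combined dual-use share for clones that list 1 V gene was 8.11% (WT), 8.79% (β5i-KO), 9.07% (β5t-KO) and 9.14% (BIT). In BIT mice it was 6.97% of reads, 7.08% of molecules, 7.81% with any listed V gene, 7.20% for nucleotide clonotypes and 6.84% with BIT 3. With 1 mouse left out it was 6.09 to 6.71% in WT, 6.66 to 7.17% in β5i-KO, 7.17 to 7.65% in β5t-KO and 7.36 to 7.43% in BIT mice. The causes of these changes were not tested.

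The deviations of mice with the same number had a median correlation of -0.01 over 22 pairs, with 6 pairs above 0.1. For mice with different numbers it was -0.01 over 86 pairs, with 25 above 0.1. Whether the numbers mark shared runs or litters was not tested. In libraries of 622 to 2454 clonotypes, a count of 0 allows a share of up to 0.482 to 0.122%, which is as high as the share of several TRAV15 genes.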

Other observations

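The libraries kept out of the comparisons held few dual-use clonotypes. BIT 3 had 21 of 455 clonotypes (4.62%, 95% Wilson interval 3.04 to 6.95%) and β5t-KO 5 had 4 of 24 (16.7%, interval 6.68 to 35.9%), and TRAV13-4-DV7 was at 0 in both.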
